A study of Mus musculus with 3 samples.

Results

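The chemokine ligands examined here were *Ccl2*, *Ccl3*, *Ccl4*, *Ccl5*, *Ccl7*, *Cxcl1*, *Cxcl2*, *Cxcl5*, *Cxcl12* and *Cxcl16*. They were taken as a named list, and their probes were found through the RefSeq transcript that each array probe targets. All 10 genes were measured, through 11 probes, among 15393 genes with a probe well above background on at least 1 array. Of the 10, 9 were well above background on all 3 arrays, and *Cxcl2* was so in suspension only.

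Chemokines are small, mostly secreted proteins that bind heparan sulphate on cells and matrix and guide leukocytes through G protein-coupled receptors. They are grouped as CC or CXC ligands by the spacing of their first conserved cysteines. In the infarcted heart, ligands of CCR2 draw monocytes and ligands of CXCR2 draw neutrophils, and many of these genes are induced by NF-kB, the transcription factor downstream of the TNF, interleukin-1 and Toll-like receptors. Fibroblasts, endothelial cells and macrophages can all produce them.

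RNA came from cardiac myofibroblasts of male C57BL/6J mice, labelled 8 weeks old (the treatment text gives 10 weeks), whose left anterior descending artery had been permanently ligated 3 days before the hearts were taken. The cells had attached to plastic overnight and lacked the leukocyte protein CD45 in magnetic sorting, and this definition was shared by every group. Adherent cells were grown on plastic plates, non-adherent cells had been moved on into suspension, and re-adherent cells had been returned from suspension to plastic, and their arrays are called Ad, Non and Re. Each state had 1 array, hybridised with RNA pooled from several hearts, so there was no replicate and no test of any difference. The states were collected one after another in the same cells, so state cannot be told apart from time in culture. The paper reports that most cells were lost in suspension through anoikis, the death of detached cells. State therefore cannot be told apart from survival of part of the cells either. Signals are given in intensity units before scaling. Log2 differences and folds are given after each array was scaled to its 75th percentile, which was 651 units for Ad, 697 for Non and 541 for Re.

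All 3 arrays lay on the same slide, with 53.9% to 59.9% of non-control spots well above background. The myofibroblast marker *Acta2*, smooth muscle actin, was at 435300 intensity units on the Ad array, 4690 on the Non and 345278 on the Re array. Other fibroblast markers did not all follow it. Of 12 such markers 5 were over 2-fold lower on Non than on Ad and 2 were higher, where 14.7% and 17.2% of all genes were. *Postn*, periostin, differed little, at 7849, 7715 and 5620 units on Ad, Non and Re. Transcripts of cells that the sort should remove were present as well. *Ptprc*, which encodes CD45, was well above background on every array, at 355, 2441 and 532 units in the same order. Of 16 macrophage markers 14 were measured, all of them well above background on all arrays, while *Cd163* was on none and *Cd68* was not matched. Of the 14, 13 were over 2-fold higher on Non than on Ad, against 17.2% of all genes. The summed level of the 14 markers was 7.79, 10.41 and 8.80 log2 units above the 75th percentile on the Ad, Non and Re arrays.

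Promoters of only 4 of the 10 ligand genes were in the RefSeq table used here (GRCm38.p6), and the 100 bases before each start site are shown for all 4. They were not picked by their courses. *Cxcl1* and *Cxcl2* are neighbours on chromosome 5, *Ccl3* had a large difference in suspension and *Cxcl12* a small one. Capitals mark the letters GGANTTTCC, a form of the NF-kB motif searched on both strands. The windows were chr5:90891145-90891244 on the plus strand for *Cxcl1*, chr5:90903799-90903898 on the plus strand for *Cxcl2*, chr11:83649379-83649478 on the minus strand for *Ccl3* and chr6:117168435-117168534 on the plus strand for *Cxcl12*.
Cxcl1: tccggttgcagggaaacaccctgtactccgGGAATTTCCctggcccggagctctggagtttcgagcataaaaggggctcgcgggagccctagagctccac
Cxcl2: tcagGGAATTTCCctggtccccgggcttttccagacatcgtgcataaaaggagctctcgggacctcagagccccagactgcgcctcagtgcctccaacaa
Ccl3: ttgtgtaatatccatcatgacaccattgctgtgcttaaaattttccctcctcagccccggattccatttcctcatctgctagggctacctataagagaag
Cxcl12: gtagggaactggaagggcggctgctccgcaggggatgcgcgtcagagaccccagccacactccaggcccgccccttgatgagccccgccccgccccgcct

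The NF-kB letters occurred once in each of the *Cxcl1* and *Cxcl2* windows, with the first letter 70 and 96 bases before the start site, and not in those of *Ccl3* and *Cxcl12*. Among 32851 mouse promoters of 250 bases before to 50 bases after the start site, 1.25% held them. Over the 250 bases before the start, the longest run that *Cxcl1* and *Cxcl2* had in common was 14 bases, gggaatttccctgg, which contains the motif. The *Cxcl12* promoter held the GC box GGGCGG 5 times and that of *Cxcl2* held it once, against 35.7% of all promoters with at least 1. The letters TATAAA (13.6% of promoters), TGANTCA of AP-1 (7.81%) and GGAATG of TEAD factors (14.7%, its first letters overlapping the NF-kB motif) were in none of the 4 promoters. A match is a description of these letters only.

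The ligands did not move as a block. Between non-adherent and adherent cells, 4 of 10 were over 2-fold higher on the Non array, *Ccl3*, *Ccl4*, *Cxcl16* and *Cxcl2*, where 17.2% of all genes were. *Cxcl5* was the only ligand of the 10 over 2-fold lower, against 14.7% of all genes. Between re-adherent and non-adherent cells, 7 of 10 were over 2-fold lower on the Re array, against 16.3% of all genes. These were *Ccl2*, *Ccl3*, *Ccl4*, *Ccl5*, *Cxcl1*, *Cxcl12* and *Cxcl2*, while *Cxcl5* was over 2-fold higher, as were 15.6% of all genes. Re-adherent and adherent cells, both on plastic, differed over 2-fold in 6 ligands. *Ccl5*, *Cxcl1*, *Cxcl12* and *Cxcl5* were lower, where 4.90% of all genes were, and *Cxcl16* and *Ccl4* were higher, where 4.84% were. The 3 comparisons share arrays, so their counts are not independent.

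The median log2 difference of the 10 ligands was 0.70 for non-adherent minus adherent, −1.73 for re-adherent minus non-adherent and −0.65 for re-adherent minus adherent. Over all genes the medians were −0.07, 0.08 and 0.06. The first is set by the 2 ligands in the middle of the order, *Ccl2* and *Cxcl1*, since the single values ran from −2.51 to 4.50. Raising the dim *Cxcl2* signals to the lowest signal well above background left the first and second medians at 0.70 and −1.73 and gave −0.33 for the third.

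**Figure D1:**
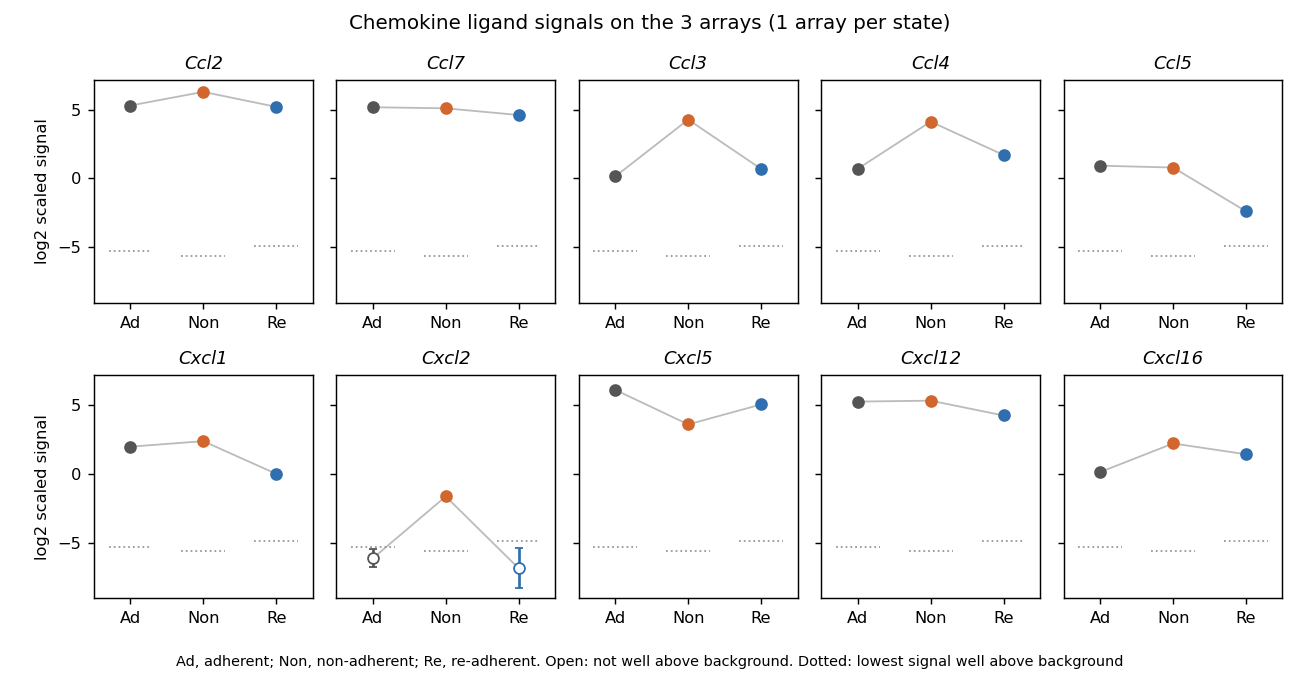
Log2 processed signal relative to the array's 75th percentile (y axis) of each chemokine ligand on the Ad, Non and Re arrays, 1 array per state. Error bars are the scanner software's technical error, open circles are signals not well above background and dotted lines the lowest signal well above background on that array. *Ccl3*, *Ccl4* and *Cxcl2* stand highest on the Non array, *Cxcl5* stands lowest there, and *Ccl5* is low on the Re array alone.

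*Ccl2* and *Ccl7* encode ligands of CCR2, the receptor by which monocytes leave the marrow and enter injured tissue. *Ccl2* had a mean signal of 25610 units over 10 spots on the Ad array, 54571 on the Non array and 19938 on the Re array. Before scaling, the 10 spots ran from 24119 to 27479, from 50002 to 57987 and from 19189 to 21270 units, a spread within each single array. After scaling, *Ccl2* was 1.99-fold higher on Non than on Ad, a log2 difference of 0.99 ± 0.20 (technical error given by the scanner software, 1 array per state), just under the line of 2-fold. Over the 10 repeated spots the same difference had an SD of 0.03, which covers printing and scanning only. The Re array was 2.13-fold below the Non array and near the Ad array, with a log2 difference of −0.09 ± 0.20 from the latter.

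*Ccl7* gave 23476, 23804 and 13188 units on the Ad, Non and Re arrays. Its log2 difference between non-adherent and adherent cells was −0.08 ± 0.20, smaller than the technical error, and its sign changed with the scaling (from −0.29 to 0.08 over the alternatives). The Re array stood below the Ad array by a log2 difference of −0.57 ± 0.20. *Ccl7* is next to *Ccl2* on chromosome 11 and encodes a ligand of the same receptor.

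*Ccl3* and *Ccl4* encode macrophage inflammatory proteins, and CCL3 is a ligand of CCR1, a receptor of monocytes and other leukocytes. *Ccl3* gave 720 units on the Ad array, 13490 on the Non array and 874 on the Re array. *Ccl4* gave 1060, 12146 and 1764 units. Both were high on the Non array and low on both arrays from plastic. Scaled, *Ccl3* was 17.5-fold higher on Non than on Ad (log2 4.13 ± 0.20) and 12.0-fold lower on Re than on Non (log2 −3.58 ± 0.20). *Ccl4* was 10.7-fold higher (log2 3.42 ± 0.20) and then 5.35-fold lower (log2 −2.42 ± 0.20). Re-adherent minus adherent differences were 0.54 ± 0.20 for *Ccl3*, brought to 0.07 by scaling to control probes, and 1.00 ± 0.20 for *Ccl4*. The *Ccl4* value lies on the line of 2-fold itself, and *Ccl4* was counted as higher by a margin far below its error. In 6 of 11 alternative settings it was not counted, at 0.52 to 0.996.

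*Ccl5* encodes another ligand of CCR1, best known from T cells. Like *Cxcl1* and *Cxcl12*, it differed under 2-fold between Ad and Non and was over 2-fold lower on Re than on either. Its probe gave 1236 units on the Ad array, 1205 on the Non array and 103 on the Re array. The Ad and Non arrays differed by less than the error (log2 −0.14 ± 0.20). The Re array was 9.06-fold below the Non array (log2 −3.18 ± 0.21) and 9.95-fold below the Ad array (log2 −3.31 ± 0.21). With normexp background correction, which adds 50 units to each signal, these differences were −2.51 and −2.68. Under both settings the difference between Re and Ad was the largest among the 10 ligands. Among T and NK cell markers, *Cd3e* gave 948, 908 and 988 units and *Cd4* 2855, 3440 and 2536 units, while *Cd3d*, *Cd3g* and *Cd8a* were not well above background on any array. *Gzma*, granzyme A, gave 40.3, 29.5 and 19.1 units, the last not well above background, and was at least 1.76-fold lower on Re than on Ad. Only 3 of the 5 measured T and NK cell markers were well above background on all arrays, and *Klrb1c* was so in suspension only, at 26.7 units. Of the 5 markers 0 were over 2-fold lower on Re than on Ad, against 4.90% of all genes. With no scaling and with scaling to control probes 1 of the 5 markers was. The summed level of the 5 markers was 3.00, 3.36 and 3.23 log2 units on Ad, Non and Re, with *Cd4*, *Nkg7* and *Cd3e* the brightest. The part of these cells in the *Ccl5* values was not tested.

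*Cxcl1*, *Cxcl2* and *Cxcl5* encode ligands of CXCR2, the main chemokine receptor of neutrophils, and their courses differed. *Cxcl1* gave 2556, 3613 and 543 units on the Ad, Non and Re arrays. It was 1.32-fold higher in suspension than on the first plates (log2 0.40 ± 0.20) and then 5.17-fold lower (log2 −2.37 ± 0.20). The Re array was 3.92-fold below the Ad array (log2 −1.97 ± 0.20), the largest fall between these states among the 10 ligands after *Ccl5*.

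*Cxcl2* was the only ligand of the 10 with signals not well above background, at 9.24 units on the Ad and 4.65 units on the Re array. On the Non array it gave 223 units, well above background. Against the lowest signal well above background on each plastic array it was at least 12.5-fold higher on Non than on Ad, and at least 9.46-fold higher than on the Re array. These bounds hold for the processed signal as scaled here. With normexp background correction the log2 differences were smaller, 1.80 for non-adherent minus adherent and −1.56 for re-adherent minus non-adherent, which is below both bounds. No fold between the arrays from plastic can be given. *Cxcl2* carries the same NF-kB letters and the 14-base run that *Cxcl1* has before its start site.

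*Cxcl5* ran the other way, with 44589 units on the Ad array, 8398 on the Non array and 17835 on the Re array. The Non array was lowest, 5.68-fold below the Ad array (log2 −2.51 ± 0.20). The Re array was 2.73-fold above the Non array (log2 1.45 ± 0.20) but still 2.08-fold below the Ad array (log2 −1.06 ± 0.20), close to the line of 2-fold. The CXCR2 gene itself, *Cxcr2*, did not rise well above background on the 3 arrays.

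*Cxcl12* encodes the homeostatic ligand of CXCR4, made by many mesenchymal cells and also taken up by the scavenger receptor ACKR3. Its brighter probe gave 24766, 27800 and 10234 units on the Ad, Non and Re arrays. Ad and Non differed by a log2 value of 0.07 ± 0.20, with the sign turned when the arrays were scaled to control probes (−0.15). The Re array was 2.11-fold below the Non array (log2 −1.08 ± 0.20) and 2.01-fold below the Ad array (log2 −1.01 ± 0.20). A second probe, for another *Cxcl12* transcript, gave 8594, 13748 and 5159 units. It had nearly the same difference between Re and Non, −1.05, but 0.58 for non-adherent minus adherent and −0.47 for re-adherent minus adherent, so the 2-fold call between the plastic-grown states rested on the brighter probe.

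*Cxcl16* encodes a ligand of CXCR6 that is made as a transmembrane protein and shed from the cell. It gave 714, 3218 and 1451 units. It was highest on the Non array, 4.21-fold above the Ad array (log2 2.07 ± 0.20), and the Re array was 1.72-fold below the Non array (log2 −0.79 ± 0.20). *Cxcl16* was the ligand that stood furthest above its adherent level in re-adherent cells, 2.44-fold (log2 1.29 ± 0.20), though scaling to control probes brought this to 0.81.

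**Figure D2:**
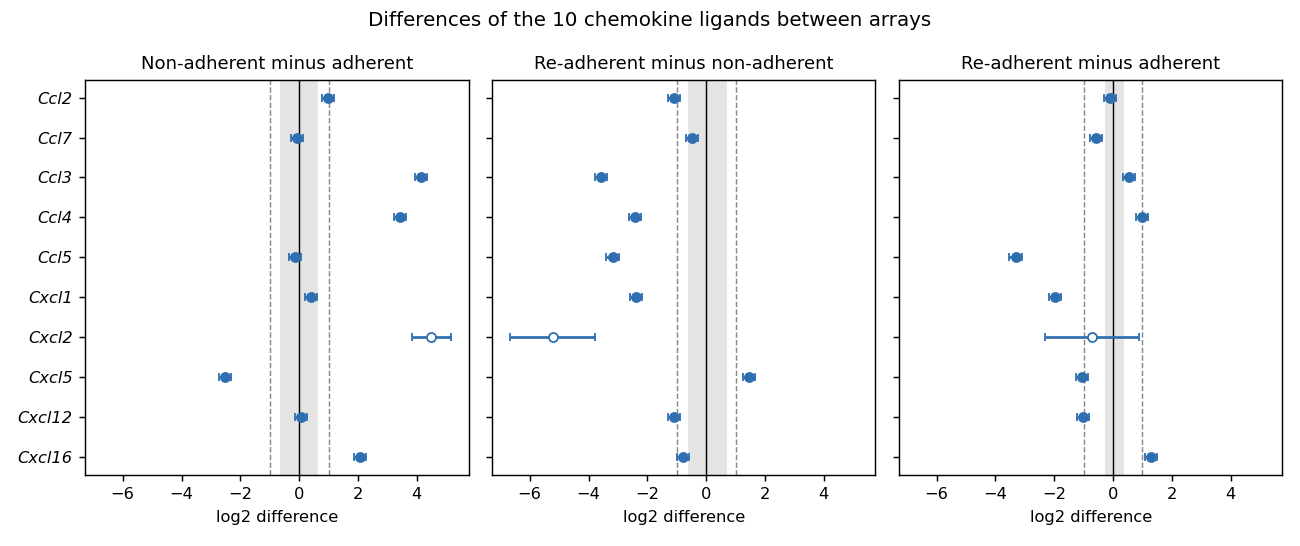
Log2 difference (x axis) of each chemokine ligand between each pair of arrays. Bars are the software's technical error of the difference, open circles rest on at least 1 signal not well above background, the grey band spans the middle quartiles of all 15393 genes and dashed lines mark 2-fold. *Cxcl5* lies opposite to *Ccl3* and *Ccl4* in the first and second panel, and *Ccl5* lies farthest to the left in the third at −3.31.

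Most ligand genes sit in groups on their chromosomes. *Cxcl5*, *Ppbp*, *Pf4*, *Cxcl3*, *Cxcl15*, *Cxcl1* and *Cxcl2* follow each other on chromosome 5 with no other listed gene between them. In suspension this row split. *Cxcl5*, *Ppbp* and *Cxcl3* were over 2-fold lower in suspension than before (log2 −2.51, −1.30 and −1.54), *Pf4* was higher (1.61) and *Cxcl2* was high only in suspension. *Ccl3* and *Ccl4* are adjacent on chromosome 11, with *Ccl5*, *Ccl9* and *Ccl6* close by. All of these but *Ccl5* were over 2-fold higher in suspension, from 1.93 for *Ccl9* to 4.13 for *Ccl3*.

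**Figure D3:**
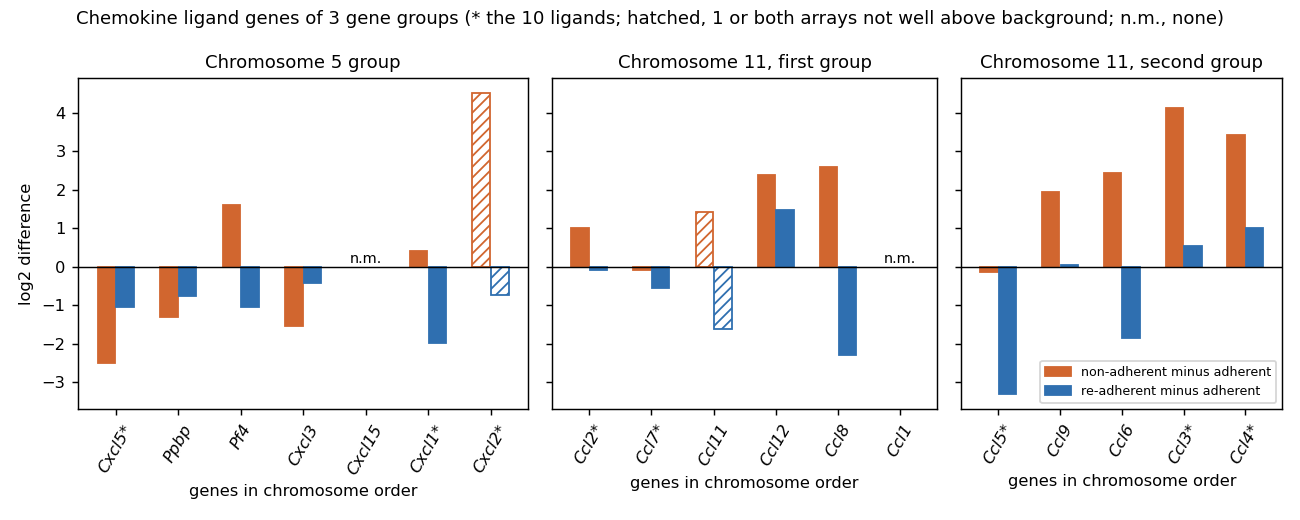
Log2 difference (y axis) of chemokine ligand genes in their order along 3 gene groups on chromosomes 5 and 11, for non-adherent minus adherent (orange) and re-adherent minus adherent (blue). Asterisks mark the 10 ligands, hatched bars rest on a signal not well above background and n.m. marks genes not well above background on any array. Neighbours differ in sign within the chromosome 5 group, where *Cxcl5* is at −2.51 and *Pf4* at 1.61.

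Of 28 further ligand genes, 16 were measured. Of these, 14 were well above background on all 3 arrays, and *Ccl11* and *Ccl24* were so in suspension only. Between non-adherent and adherent cells 9 of the 16 were over 2-fold higher, *Ccl11* and *Ccl24* among them, and 3 lower. The median of the 16 was 1.51. Over all genes 17.2% were higher and 14.7% lower. The alternatives gave 7 to 10 ligands higher and 2 to 4 lower, with medians from 0.47 to 1.77. Between re-adherent and non-adherent cells 2 were higher and 10 lower, and between re-adherent and adherent cells 2 were higher and 5 lower. Over all genes these shares were 15.6% and 16.3%, then 4.84% and 4.90%. *Ccl17*, which encodes a CCR4 ligand, had the largest difference, with 1444, 22.5 and 526 units on the Ad, Non and Re arrays and log2 differences of −6.10 and 4.91 into and out of suspension. It was thus low in suspension like *Cxcl5*. *Ccl8* gave 1117, 7239 and 189 units, *Ccl6* gave 26246, 152532 and 6032 units and *Ccl19* gave 88.8, 1433 and 89.6 units, all highest in suspension.

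Many receptors that these ligands act on were highest in suspension. Of 24 receptor genes 17 were measured, and 12 of these were over 2-fold higher on Non than on Ad and none lower (5 to 12 higher and at most 1 lower over the alternatives). Over all genes 17.2% were higher and 14.7% lower. Only 10 of the 17 were well above background on all 3 arrays. *Ccr1*, a receptor of CCL3 and CCL5, gave 27.7, 95.4 and 9.35 units, the last not well above background. *Ccr2*, the receptor of CCL2 and CCL7, was well above background in suspension only, at 55.0 units, at least 3.07-fold above the Ad array.

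*Cxcr4* gave 173, 1733 and 275 units, with log2 differences of 3.22 and −2.29. The scavenger of the same ligand, *Ackr3*, gave 289, 713 and 53.9 units and had a log2 difference of −2.16 between Re and Ad. *Cxcr6*, the receptor of CXCL16, differed little between adherent and non-adherent cells, at 51.5 and 60.1 units (log2 0.12), and gave 26.2 units on the Re array. The atypical receptors *Ackr1* and *Ackr2*, which bind many inflammatory chemokines without signalling, were well above background in suspension only, at 84.2 and 53.2 units. *Cx3cr1*, a receptor of monocytes and tissue macrophages, was highest on the Re array, with 416, 2837 and 8492 units and a re-adherent minus adherent difference of 4.62. *Cxcr3* gave 65.0, 598 and 84.3 units.

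Marker genes of other cells did not move as a block either. For non-adherent minus adherent the list median was 1.73 for endothelial markers, 0.17 for T and NK cells, 0.06 for neutrophils and −0.63 for platelets. The macrophage markers had a median log2 difference of 2.69 for non-adherent minus adherent and of 0.88 for re-adherent minus adherent. *Mrc1*, the mannose receptor, was at 3.58 in the first comparison, and the complement genes *C1qa*, *C1qb* and *C1qc* were at 3.32, 3.44 and 3.30. *Mertk* and *Itgam* were slightly below 0 for re-adherent minus adherent, at −0.03 and −0.16. *Ccl3*, *Ccl4* and *Cxcl16*, with *Cxcr4*, had suspension highest and re-adherent above adherent. So did *Cxcl10*, *Tnf* and *Tlr2*, which are in other lists than the macrophage markers. For *Ccl3* the re-adherent minus adherent value of 0.54 came to 0.07 with scaling to control probes. The share of all genes with this order was not counted. *Itgam* was the only macrophage marker of the 14 below 0 in the first comparison, at −0.84. The part of these cells in the ligand values was not tested, and in pooled RNA fewer cells of a type and less RNA per cell cannot be told apart.

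Most endothelial markers were lowest on the Re array. All 10 were measured, and 7 of them were over 2-fold lower on Re than on Ad, against 4.90% of all genes. The alternatives gave 4 to 8, and the median of the 10 markers was −1.99. Their summed level was 4.57, 5.28 and 4.48 log2 units on the Ad, Non and Re arrays, a sum to which *Kdr* contributed with 9446, 7939 and 10321 units and no such fall. *Cdh5*, VE-cadherin, gave 289, 2381 and 26.6 units, and *Cldn5*, *Tie1* and *Emcn* were at signals not well above background there. *Ccl5*, *Cxcl1* and *Ackr3* were also over 2-fold lower on Re than on Ad. So were *Cxcl12*, *Cxcl5* and the fibroblast markers *Dcn* (log2 −1.51) and *Lum* (−2.85). On the Non array 7 of the 10 endothelial markers were over 2-fold higher than on Ad, with a median of 1.73. *Ccl5* was at −0.14 and *Cxcl1* at 0.40 in that comparison. The part of endothelial cells in the ligand values was not tested.

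Of 5 neutrophil markers measured among 8, 3 were over 2-fold lower on Re than on Ad (1 to 4 over the alternatives), against 4.90% of all genes. Of these, *S100a8* was at −1.07, and *Ltf*, not well above background on Re, was at least 1.19-fold lower. *S100a9* was on no array well above background. On Non 2 of the 5 were over 2-fold higher than on Ad, *Camp* (3.28) and *S100a8* (1.44), and 1 was lower. The summed neutrophil level was 6.62, 6.48 and 6.30 log2 units and included *Csf3r*, which ran from 42146 to 62759 units with differences under 2-fold. Mast cell markers were well above background on all arrays in 1 of 4 measured genes, *Tpsb2*. Of 5 measured platelet markers, which include the ligands *Pf4* and *Ppbp*, 2 were over 2-fold higher and 1 lower on Non than on Ad, with a median of −0.63. *Treml1* was at 3.13 and *Pf4* at 1.61, while *Gp1bb* was at −0.63 and *Ppbp* at −1.30. Of 6 measured cardiomyocyte markers 4 were well above background on all 3 arrays. On Re 3 of the 6 were over 2-fold higher than on Ad and 1 was lower, where 4.84% and 4.90% of all genes were. *Tnnt2* was at 1.74 and *Myh6* at −0.17. *Myl7* and *Tnni3*, not well above background on either array, were at 1.47 and −1.25. The list median changed sign over the alternatives (−0.13 to 0.83). Of 12 fibroblast markers 5 were over 2-fold lower and 2 higher in suspension, where *Lum* stood at 3.56 and *Acta2* at −6.64. Over all genes 17.2% were over 2-fold higher and 14.7% lower on Non than on Ad.

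**Figure D4:**
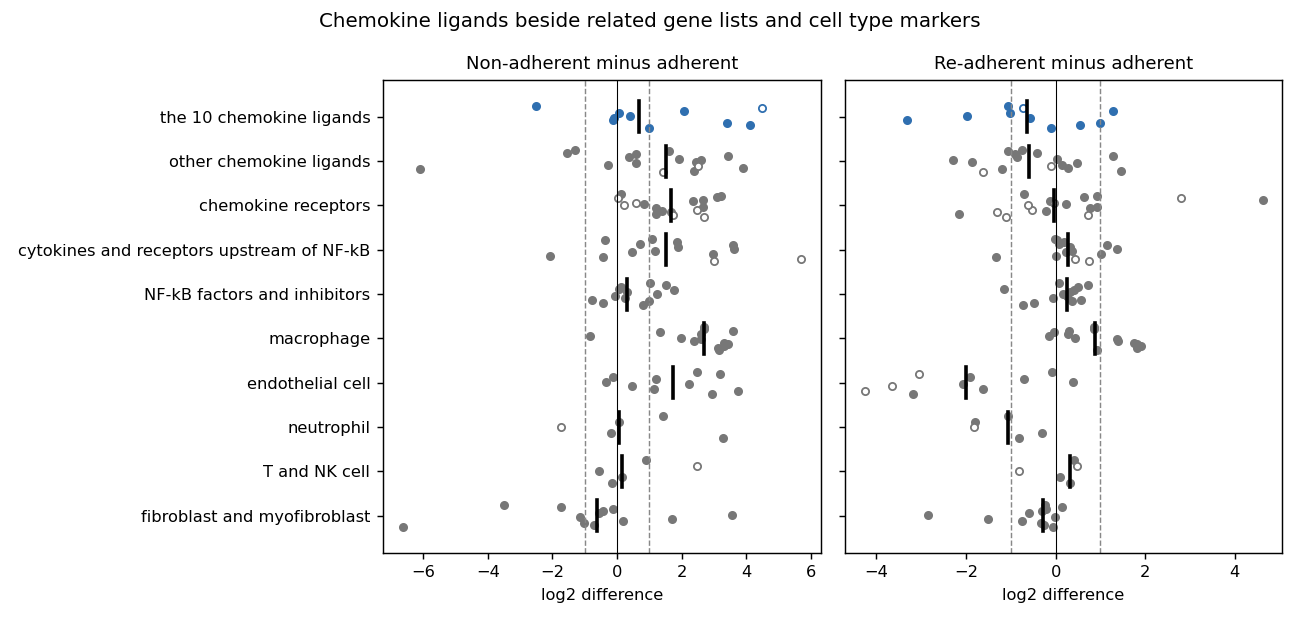
Log2 difference (x axis) of each measured gene in the 10 chemokine ligands (blue) and in related gene lists and cell type markers (grey), for non-adherent minus adherent and re-adherent minus adherent. Vertical bars are list medians, open circles rest on a signal not well above background and dashed lines mark 2-fold. In the left panel the macrophage markers lie at a median of 2.69 and the ligands at 0.70, and in the right panel the endothelial markers lie at −1.99.

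Genes of the pathway that induces many chemokines were compared in the same way. Of 14 cytokine and receptor genes upstream of NF-kB, 9 were over 2-fold higher and 1 was lower on Non than on Ad. Over all genes the shares were 17.2% and 14.7%. *Tnf* gave 121, 1544 and 222 units (log2 3.59 into suspension and −2.43 out of it), and *Tlr2* gave 618, 8213 and 1326 units (3.63 and −2.26). *Il1b* was well above background in suspension only, at 241 units, at least 13.4-fold above the Ad array, as *Cxcl2* was. *Il1rn*, the interleukin-1 receptor antagonist, was at 2.97 into suspension, and *Il1rap*, the accessory chain of the interleukin-1 receptor, was the lower gene at −2.08.

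The NF-kB factors themselves differed less. Of 13 measured genes 5 were over 2-fold higher in suspension and none lower (3 to 6 higher and at most 1 lower over the alternatives). Their median was 0.30 (0.09 to 0.56 over the alternatives). Among the 5, *Ikbkb* at 1.003 and *Tnfaip3* at 1.01 lay close to the line of 2-fold. Over all genes 17.2% were higher and 14.7% lower. The subunit *Rela* was at 0.12. Inhibitors differed among themselves, with *Nfkbie* at 1.76, *Nfkbia* at 1.23 and *Tnfaip3* at 1.01, but *Nfkbib* at 0.30. *Nfkbiz* was at 0.06. *Relb* was at 1.51, and *Bcl3*, a nuclear partner of NF-kB, was at 0.82 into suspension and −1.55 out of it. *Ikbkg*, a part of the kinase complex upstream, was at −0.79 and then 1.35.

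Among 7 genes for proteins that bind chemokine mRNA and set its decay, *Zfp36*, tristetraprolin, was the only one over 2-fold higher in suspension, from 141 to 1014 units, with a log2 difference of −2.99 between Re and Non. *Elavl1*, which stabilises such transcripts, was the only one over 2-fold lower (−1.05), a count that was 0 with the deposited values, quantile normalization, no scaling and averaged probes. *Zfp36l1* was at 0.55 and *Zc3h12a*, an RNA-degrading nuclease, at −0.46. Of 16 genes for proteases and proteoglycans that shed, trim or hold chemokines, 6 were over 2-fold higher and 3 lower in suspension. For both lists the shares over all genes were 17.2% higher and 14.7% lower. *Mmp2*, which cleaves CXCL12 and CCL7, gave 5700, 34191 and 4183 units. *Mmp12* and *Dcn* were also higher in suspension, by 2.42 and 1.69, and *Mmp8*, a collagenase that trims CXCL5, differed by 0.06 there and by −1.79 between re-adherent and adherent cells.

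How common each course was differed between ligands. Likeness was the distance between a pair of values, non-adherent minus adherent and re-adherent minus non-adherent, over 3 arrays and 13475 other genes well above background on all of them. Within a distance of 0.5 log2 units there were 1768 genes for *Ccl7*, 914 for *Ccl2* and 308 for *Cxcl12*, but 10 for *Ccl3*, 15 for *Cxcl1* and 4 for *Ccl5*. *Cxcl16* had 133, *Ccl4* 99 and *Cxcl5* 62. The 3 nearest genes of each ligand lay at distances from 0.012 for *Ccl7* to 0.37 for *Ccl5*. These genes were *Gm6377*, *Slamf8* and the ligand *Ccl19* for *Ccl3*, *Blnk*, *Slc46a3* and *Lmo2* for *Ccl4*, and *Ndufa4l2*, *Rbp4* and *Lgi2* for *Ccl5*. They were *Thbs3*, *Rgcc* and *Angptl7* for *Cxcl1*, *Adamtsl3*, *Spink2* and *Mir100hg* for *Cxcl5* and *Pdk2*, *Abhd15* and *Paqr7* for *Cxcl16*. For *Ccl2* they were *Abcc5*, *Phf20* and *Slu7*, for *Ccl7* *Srrm2*, *Mm2pr* and *H3c1*, and for *Cxcl12* *Tgtp2*, *Stxbp6* and *Igfbp6*.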

How the data were processed

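RNA of 3 states of mouse cardiac myofibroblasts was hybridised to 1-colour Agilent SurePrint G3 mouse arrays, 1 per state. The authors' scanner files (Agilent Feature Extraction, version 10.10.1.1) held spot intensity as processed signal, already corrected for background, with a software error per spot. The deposited matrix held intensity too, equal to the same signal times 1 constant per array (1.52, 1.52 and 1.62). Here each array was scaled on the log2 scale to its 75th percentile over 59305 non-control spots (651, 697 and 541 units of processed signal). Flagged spots (154, 180 and 175) were left out, no non-control spot was saturated, and spots of a probe were averaged. RefSeq transcripts (GRCm38.p6, which is later than the assembly of the array design, so only the promoter windows have coordinates) named 27235 of 55681 probes, and the brightest probe well above background on at least 1 array stood for a gene.

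Over 2-fold was counted, with no p-value. Errors combine those of both signals and are technical, and the small number of arrays limits the precision. For a signal not well above background, the bound is the brighter scaled signal over either the dim signal or the array's lowest signal well above background, whichever was higher. Named were all 10 ligands, receptors of the ligands (1 of which is not reported here), the 3 nearest genes in pattern and up to 4 genes per list with the largest difference, and some further list members were chosen after their values were seen. The ligands and lists were chosen with earlier results of these data known. The calculation was tested on simulated data.

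Alternatives were other scalings, normexp in limma 3.58.1 (offset 50, on median spot signals, since mean signals were not used here), a floor for dim signals, other filters, averaged probes, flagged spots kept and a 4-fold line. Scaling to 202 spots of E1A control probes and a percentile without flagged spots were added after the data were seen. Python 3.11.15 and R 4.3.3 were used.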

Additional observations from a re-analysis of the deposited data

How the results depend on the processing

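Of 30 ligand differences, 27 kept their sign under all 11 alternatives that gave ligand values. The exceptions were *Ccl7* and *Cxcl12* for non-adherent minus adherent and *Cxcl2* for re-adherent minus adherent, and *Cxcl2* was then over 2-fold in 2 alternatives (−1.07 with quantile normalization and −1.20 with the control probes). The side of the 2-fold line held for 23 of 30. *Ccl2* for non-adherent minus adherent passed it in 4 alternatives (1.02 to 1.34), and *Ccl4* for re-adherent minus adherent missed it in 6 (0.52 to 0.996). The others were *Cxcl16* and *Ccl7* under other scalings, *Cxcl12* with its probes averaged (−0.74) and *Cxcl2*, whose signals on plastic were not well above background.

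A line of 4-fold left 0 ligands higher for re-adherent minus non-adherent, and 0 higher and 1 lower for re-adherent minus adherent. The number higher for re-adherent minus adherent was 1 with the authors' deposited values, quantile normalization, no scaling, normexp and the percentile without flagged spots, and 0 with the control probes.

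The median for re-adherent minus non-adherent was −2.004 with the deposited values, −2.02 with quantile normalization, −2.09 with no scaling, −1.99 with the control probes, −1.35 with normexp and −1.09 over the 9 ligands well above background on all arrays. That for re-adherent minus adherent was −0.90 with quantile normalization, −0.91 with no scaling, −1.12 with the control probes, −0.34 with normexp and −0.33 with dim signals raised to the floor. That for non-adherent minus adherent was 0.48 with the control probes and 0.40 over the 9 ligands. The cause was not tested. The scalings also moved the median of all genes, for re-adherent minus adherent from 0.06 to −0.41 with the control probes, −0.20 with no scaling and −0.11 with the deposited values. The ligands' median less that of all genes was −0.71, which a single factor per array cannot change, and −0.91 with quantile normalization, −0.44 with normexp and −0.42 with dim signals at the floor.

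For re-adherent minus adherent the median of the receptors changed sign over the alternatives (−0.51 to 0.43), as did that of the other ligands (−1.06 to 0.09), while for non-adherent minus adherent both stayed above 0. The macrophage median stayed above 0 and the endothelial one below 0 in the re-adherent minus adherent comparison. No paired analysis was possible because each state had 1 array, and no replicate could be left out.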
